A study of Homo sapiens with 16 samples.

Results

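Gene expression was compared among 6 cultures of 42MGBA, an established human glioblastoma cell line that carries a mutation in STAG2. These 6 arrays were all those of the series whose title names 42MGBA, out of 16 arrays in all. Total RNA of untreated, dividing cells grown below confluence in serum-containing medium was read on Affymetrix Human Gene 1.0 ST microarrays, 1 for each culture. The arrays labelled STAG2 deficient were the parental line (STAG2 mutant) and the knock-in pre-Cre clones 53 and 92. Those labelled STAG2 corrected were the knock-in post-Cre clones 53-1, 53-7 and 92-6, whose numbers name clone 53 or clone 92 as their parent. Each clone was measured on 1 array, so the error within a group is the spread between clones and says nothing of repeat cultures of a clone. The parental line carries no knock-in, whereas the other 5 cultures do. The sources used here do not state what the knock-in holds before Cre, and no clone given Cre without correction was among these arrays. Levels are log2 values on the authors' scale, and 3 levels given together are in the order parental, 53 and 92 for the arrays labelled deficient, and 53-1, 53-7 and 92-6 for those labelled corrected. Differences are deficient minus corrected unless another direction is named, so a difference below 0 is a lower level before correction.

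Cohesin is a ring of SMC1A, SMC3 and RAD21 that holds sister chromatids together from DNA replication until anaphase and folds chromosomes into loops between sites bound by CTCF. STAG2, on the X chromosome, and its paralog STAG1 are alternative subunits that sit on the RAD21 side of the ring, and loss of STAG2 is a recurrent event in several tumour types, glioblastoma among them. Cre is a recombinase that removes DNA between loxP sites, and is commonly used to take inserted sequence back out of a knock-in.

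The labelled cell type was set against marker genes. Of 11 astrocyte and glioma markers, 4 lay above the median of all probe sets on each of the 6 arrays, namely the intermediate filament genes VIM and NES, the hyaluronan receptor gene CD44 and the glial transcription factor gene SOX9. The other 7 lay below the median on each array, among them the defining astrocyte genes GFAP, S100B and AQP4 and the neural stem cell genes SOX2 and OLIG2. Each of the 5 fibroblast and mesenchymal markers lay above the median throughout. Their mean level was 10.1 to 10.2 on the arrays labelled deficient and also 10.1 to 10.2 on those labelled corrected, and collagen gene COL1A2 reached 11.7 to 11.9. Of 6 blood and microglial markers 5 lay below the median on each array, PTPRC among them, and TYROBP lay above it on each. Of 4 endothelial markers 3 lay below, PECAM1 among them, and CLDN5 above. The 8 epithelial markers were divided, with EPCAM, CDH1, KRT20 and VIL1 below the median on each array and KRT8, KRT18, KRT19 and CDX2 above it. The mean levels of these marker groups overlapped between the labels. In bulk RNA, fewer cells with a transcript and less of it per cell cannot be told apart.

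The arrays did not group throughout by label or by parent clone. Over the 11133 genes tested, the closest pair was clone 92, labelled deficient, and clone 53-1, labelled corrected and numbered as a descendant of clone 53. The SD of the log2 differences between this pair was 0.153, and only 3 genes differed by 2-fold or more. For the other 14 pairs the SD lay between 0.219 and 0.291, with 23 to 114 genes differing by 2-fold. Clone 53 and its descendant 53-1 stood 0.225 apart with 25 such genes, clone 53 and 53-7 stood 0.265 apart with 57, and clone 92 and its descendant 92-6 stood 0.244 apart with 47. Clone 53 was nearest to clone 92, which has the same label, at 0.219 and 23 genes. Clone 53-7 was nearest to 53-1, which shares its label and parent, at 0.236 and 39 genes. By SD the parental array was nearest to 92-6, at 0.237 and 63 genes. By the number of genes it was nearest to clone 92, at 0.242 and 55 genes. After removal of the group means, the deviations of clone 92 correlated at -0.17 with those of its named descendant 92-6 and at 0.28 with those of 53-1. The first principal component, with 33.3% of the variance, put the parental array (-12.8) and 92-6 (-13.2) at one end and clone 53 (13.3) at the other. Clones 92 (5.5) and 53-1 (6.0) lay side by side, and the second component, with 24.8%, set 53-7 (17.6) apart from the rest. No pair of arrays held identical values. Clone 92 and 53-1 thus go against their labels. Whether samples were exchanged was not tested and cannot be told from these arrays, and every difference between labels and every pair within a parent clone holds only for the labels as given. The overall counts, STAG2, ITGA6 and the gene groups that turn on these clones are also given without both.

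**Figure D1:**
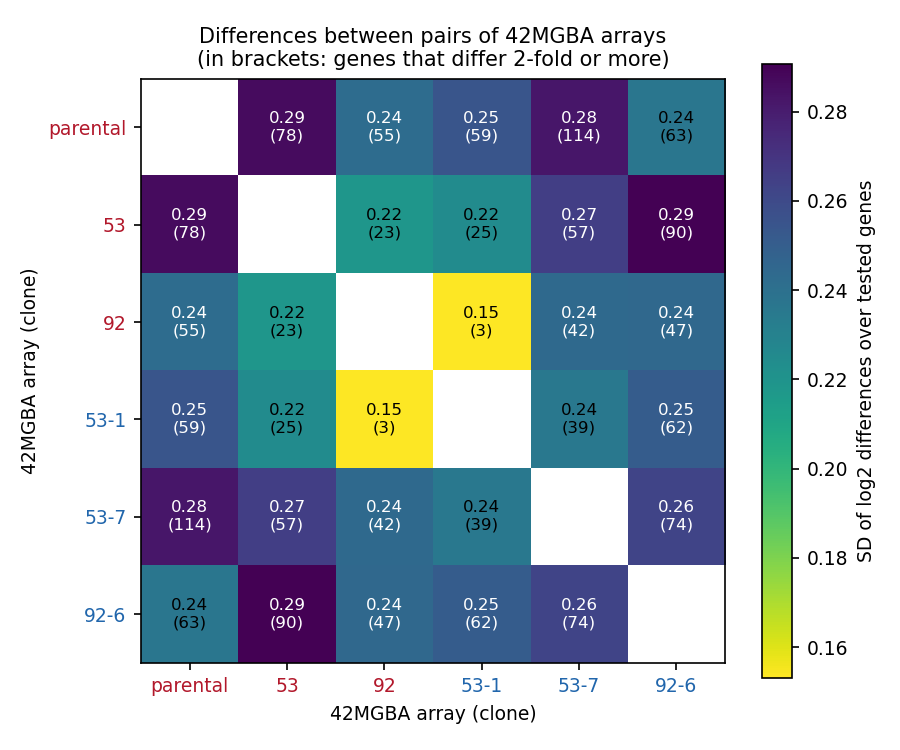
SD of the log2 differences over the tested genes for each pair of 42MGBA arrays (colour scale and upper number), with the number of genes that differ by 2-fold or more in brackets; names of arrays labelled deficient are red and those labelled corrected are blue. Clone 92 and clone 53-1 form the closest pair, at 0.15 and 3 genes, and no block of like arrays follows the labels.

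STAG2 itself did not separate the groups. Its level was 4.75, 5.34 and 5.60 on the arrays labelled deficient and 5.65, 5.41 and 5.53 on those labelled corrected. The parental line was lowest, and the pre-Cre clones 53 and 92 lay within or next to the range of the corrected clones. The difference was -0.30 (SE 0.19, 95% interval -0.74 to 0.14), with limma's adjusted p = 0.997. An exact two-sided permutation test gave p = 0.3, where 3 arrays against 3 cannot go below 0.1. Without the parental array the difference was -0.06, and without clone 92 and 53-1 it was -0.43. Among all probe sets of an array, STAG2 stood at percentile 45.8 in the parental line, at 55.2 and 59.5 in the pre-Cre clones and at 55.9 to 59.8 in the post-Cre clones. The probe set averages probes along the transcript, so a mutation that leaves the transcript in place need not lower this level, and it is no check of the protein. STAG2 thus cannot show whether an array has the right label.

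STAG1, the alternative subunit, was at 5.71, 5.38 and 5.33 before correction and at 5.25, 5.17 and 5.36 after it. It was highest in the parental array, where STAG2 was lowest, and the groups overlapped. The difference was 0.21 (SE 0.12, adjusted p = 0.997 in limma; exact permutation p = 0.2). Of the 18 tested genes for cohesin subunits and regulators, 9 were higher and 9 lower, and the median difference was -0.01, against -0.03 over all tested genes. No member kept its groups apart, where 8.71% of all tested genes did, and a list of 18 genes is too short to tell these shares apart. The ring genes SMC1A (0.11), SMC3 (-0.06) and RAD21 (-0.09), the loader gene NIPBL (0.10) and the release factor gene WAPL (0.01) all differed by less than their spread. Among 14 tested genes next to STAG2 on the X chromosome, 7 were higher and 7 lower, with a median of 0.01.

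**Figure D2:**
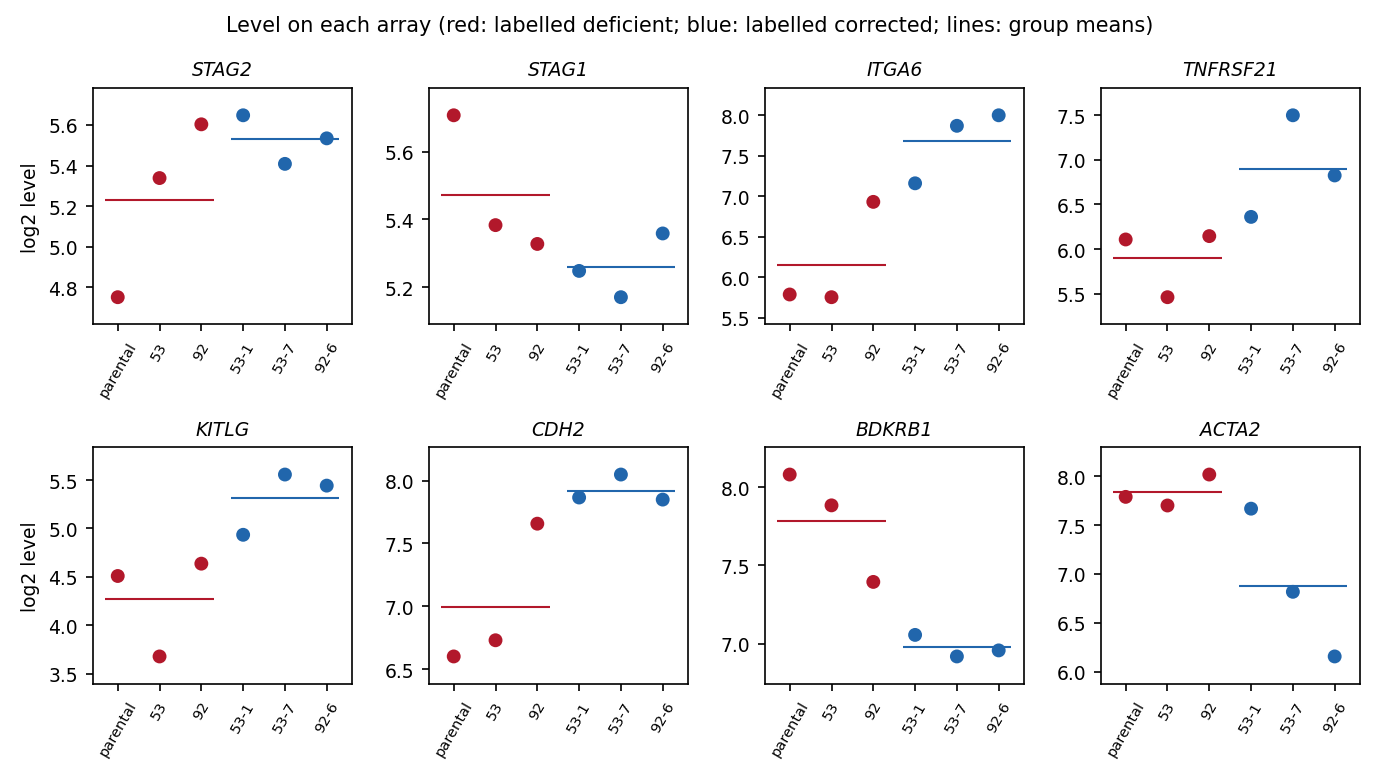
Log2 level of 8 genes on each 42MGBA array (red: labelled deficient; blue: labelled corrected; lines: group means, n = 3 each); the vertical scale differs between panels. STAG2 and STAG1 overlap between the groups, whereas ITGA6, TNFRSF21, KITLG and CDH2 lie lower and BDKRB1 and ACTA2 higher on the arrays labelled deficient, with clone 92 and clone 53-1 next to each other in most panels.

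Across all genes the comparison of the labels gave no call. None of 11133 genes (0%) passed an adjusted p of 0.05 in limma, and the lowest adjusted p was 0.997. At an unadjusted p under 0.05 there were 452 genes (4.06%), of which 130 (1.17%) were higher and 322 (2.89%) lower on the arrays labelled deficient, where 557 would be expected if no gene differed. The 3 arrays of one label all lay to one side of the other 3 for 275 genes (2.47%) on the higher side and 695 genes (6.24%) on the lower side, 970 (8.71%) in all. With an unadjusted p under 0.05 as well, from which the genes with the largest differences were taken, there were 99 (0.889%) and 244 (2.19%). Differences of any size were above 0 for 4364 genes (39.2%) and below 0 for 6769 (60.8%). The first split rests on the scale of the arrays, since after quantile normalization of the 6 arrays it was 469 higher and 444 lower. Differences reached 1.5-fold in 52 genes (0.467%) and 2-fold in 8 (0.0719%). With the median SE of 0.11, a difference has a 95% interval of ±0.25 on the log2 scale, or 1.19-fold either way. With clone 92 and 53-1 both left out, a choice made after seeing the data, 1 gene passed, ITGA6. The fit with parent clone as a block, which sets clone 53 beside 53-1 and 53-7 and clone 92 beside 92-6, also gave 0 calls, with a lowest adjusted p of 0.408 and 945 genes (8.49%) at an unadjusted p under 0.05. Every difference below is therefore a description of these 6 arrays. For each gene named from this comparison of labels limma's adjusted p was 0.997, and it is not repeated.

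The largest lower value was that of ITGA6, the gene on chromosome 2 for the integrin subunit that binds laminin with ITGB1 or ITGB4. It was at 5.79, 5.76 and 6.93 on the arrays labelled deficient and at 7.16, 7.87 and 8.00 on those labelled corrected. The groups did not overlap, but clone 92 and clone 53-1 differed by only 0.23. The mean was 6.16 ± 0.67 against 7.68 ± 0.45 (SD, n = 3 each), a difference of -1.52 (SE 0.33), or 2.86-fold. Without clone 92 and 53-1, left out after seeing the data, it was -2.16, with an adjusted p of 0.0213 in limma. These arrays hold the values next to the boundary, so leaving them out had to widen the difference and this p is no support. Over the other alternatives the adjusted p was 0.221 or higher. Of the 11 tested integrin subunit genes 3 were higher and 8 lower, and ITGA6 was the only one whose groups did not overlap, where 60.8% of all tested genes were lower and 8.71% had no overlap. The integrin median was -0.14, -0.06 without clone 92 alone and -0.02 without clone 92 and 53-1. Collagen-binding subunit gene ITGA11 (-0.54) and VCAM1-binding subunit gene ITGA4 (-0.55) were next, and ITGB1, the common partner, differed by -0.03.

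TNFRSF21, on chromosome 6, encodes death receptor DR6. Its level was 6.11, 5.46 and 6.14 before correction and 6.36, 7.50 and 6.82 after it. Clone 53 was lowest and its descendant 53-7 highest, and clone 92 and 53-1 again lay side by side across the boundary between the groups. The difference was -0.99 (SE 0.28). TNFRSF11B, the gene for the decoy receptor osteoprotegerin, was at 7.16, 6.46 and 6.56 against 6.86, 9.18 and 7.67. It overlapped between the groups and was high in 53-7 above all (difference -1.18, SE 0.49). Of 13 tested TNF receptor genes 4 were higher and 9 lower, with a median difference of -0.05.

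KITLG, on chromosome 12, encodes stem cell factor, the ligand of the receptor tyrosine kinase KIT. It lay below the array median on most arrays and so was not among the genes tested. Its levels were 4.51, 3.68 and 4.64 on the arrays labelled deficient and 4.93, 5.56 and 5.44 on those labelled corrected. The groups did not overlap, and in a fit without the filter on low values the difference was -1.04 (SE 0.25, adjusted p = 0.997 in limma). The receptor gene KIT was at 5.50, 5.22 and 5.73 against 6.08, 4.85 and 4.98, so receptor and ligand did not follow one order.

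CDH2, on chromosome 18, encodes N-cadherin, the calcium-dependent adhesion protein of neural and mesenchymal cells. Its level was 6.60, 6.73 and 7.66 before correction and 7.87, 8.05 and 7.85 after it. The low arrays were the parental line and clone 53, while clone 92 lay close to the corrected clones. The difference was -0.93 (SE 0.24). Without clone 92 alone it was -1.26, the largest of the fits that leave out 1 array.

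Other genes with the largest lower values had varied roles. CASP1, which encodes the protease that matures interleukin-1 beta, was at 4.07, 5.77 and 5.73 against 6.46, 6.35 and 5.95 (difference -1.06, SE 0.40). The parental array was far below the rest, and without it the difference was -0.50. CARD16, a neighbour of CASP1 on chromosome 11 that encodes an inhibitor resembling the CASP1 prodomain, was at 4.12, 4.45 and 4.90 against 5.14, 5.43 and 5.26 (-0.78). The likeness of their sequences means that probes could read both transcripts. CARD16 lay below the array median on each array labelled deficient and above it on each labelled corrected. It thus passed the filter only through the group where it was high. ERRFI1, a feedback inhibitor of the EGF receptor, was at 6.74, 7.40 and 7.28 against 7.50, 8.21 and 8.83 (-1.04). EPS8, an actin regulator downstream of that receptor, was at 5.97, 6.14 and 6.69 against 6.82, 6.93 and 7.34 (-0.76). CYTL1, which encodes a small secreted protein, was at 7.01, 7.72 and 7.66 against 7.81, 8.35 and 8.75 (-0.84). In each of these 5 genes clone 53-1 or 92-6 was the corrected array closest to the deficient ones.

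On the higher side the differences were smaller. ACTA2, the smooth muscle actin gene on chromosome 10, was at 7.79, 7.70 and 8.02 on the arrays labelled deficient and at 7.67, 6.82 and 6.16 on those labelled corrected. Clone 53-1 lay just under the deficient arrays and 92-6 far below them, so the difference of 0.96 (SE 0.31) became 0.59 without 92-6. BDKRB1, the gene for the bradykinin B1 receptor on chromosome 14, was at 8.08, 7.88 and 7.39 against 7.06, 6.92 and 6.96. The corrected clones were close together here (SD 0.07), and the difference was 0.81 (SE 0.16). FAM180A, of unassigned function, was at 6.89, 6.72 and 5.87 against 5.74, 5.22 and 5.83 (0.90). TSHZ1, a zinc finger transcription factor gene, was at 6.79, 6.55 and 6.59 against 6.27, 5.49 and 6.07 (0.70). FBLN5, which encodes an elastic fibre protein, was at 7.58, 7.74 and 7.62 against 7.34, 6.80 and 7.03 (0.59). The remaining 5 of the 10 largest were RNU5A-1 (0.62), LMO7 (0.58), PROS1 (0.53), SLC6A17 (0.53) and ALPK2 (0.52), which code for a spliceosomal RNA, an actin-associated protein, the anticoagulant protein S, a transporter and a kinase. None of the 10 reached 2-fold.

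Amino acid response genes lay almost all on the lower side. When uncharged tRNA or stress in the endoplasmic reticulum leads to phosphorylation of eIF2, translation of the transcription factor ATF4 increases, and ATF4 with its partners switches on amino acid transporters, serine synthesis enzymes and aminoacyl-tRNA synthetases. Of 44 genes listed, 42 were on the array and 41 were tested, and 40 of them were lower and 1 higher on the arrays labelled deficient, where 60.8% of all tested genes were lower. Groups did not overlap for 12, all on the lower side, where 6.24% of all genes were of that kind, and 19 were lower at an unadjusted p under 0.05, where 2.89% of all genes were. None passed the adjusted p. The list was chosen with earlier results of these data known, so its shares beside those of all genes are a description and no support. The median difference was -0.33 against -0.03 over all tested genes.

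The order of the arrays did not follow the labels within this group either. The median deviation of the 41 genes from their mean over the 6 arrays was -0.11 in the parental line, -0.28 in clone 53 and -0.14 in clone 92. It was -0.14 in 53-1, at the level of clone 92, but 0.27 in 53-7 and 0.41 in 92-6. Clone 92-6 was the highest array for 32 genes and 53-7 for the other 9. The lower values thus rested mainly on 2 of the 3 corrected clones. Without 53-1 the median difference was -0.48, without 92-6 it was -0.22, and without clone 92 and 53-1 it was -0.51. Within parents the median was -0.13 for clone 53 minus 53-1, -0.52 for 53 minus 53-7 and -0.55 for 92 minus 92-6. Over all tested genes these were -0.02, -0.05 and -0.05. In all 3 pairs 31 genes were lower in the pre-Cre clone and 0 higher, where 26.6% of all tested genes were lower. The first 2 pairs share clone 53, the lowest array for 25 of these genes.

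Serine synthesis enzymes and a folate enzyme were among the members with the smallest p. PHGDH, the first enzyme of the pathway, was at 8.96, 9.0 and 9.19 against 9.26, 9.65 and 9.96, a difference of -0.58 (SE 0.17). PSAT1, the aminotransferase of the next step, was at 8.06, 8.10 and 8.30 against 8.39, 8.90 and 9.47 (-0.77, SE 0.23). ALDH1L2, a mitochondrial folate enzyme, was at 7.16, 7.26 and 7.23 against 7.69, 7.94 and 7.86. Here 53-1 stood clear of all the arrays labelled deficient (-0.61, SE 0.10). Clones 53-7 and 92-6 were above 53-1 in each of these enzymes.

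Regulators and effectors showed the same split. ATF4 was at 9.18, 9.02 and 9.09 against 9.04, 9.42 and 9.57 (-0.24), with 53-1 among the deficient arrays. ASNS, which makes asparagine, was at 6.90, 6.89 and 6.95 against 6.78, 7.79 and 7.97 (-0.60). Its groups overlapped because 53-1 was the lowest array of all. CHAC1, a glutathione-degrading enzyme gene, was at 5.58, 5.38 and 5.66 against 5.73, 6.28 and 6.28 (-0.56). DDIT4, an inhibitor of mTORC1, was at 6.83, 7.10 and 7.45 against 7.50, 8.38 and 7.94 (-0.81). The cystine transporter gene SLC7A11 was at 8.39, 7.69 and 8.22 against 8.29, 8.76 and 8.91, and here the parental array lay above 53-1. STC2, which encodes a secreted glycoprotein, was the only member above 0, at 0.04. The 20 tested genes for chaperones of the endoplasmic reticulum, which the unfolded protein response shares with this pathway, had a median of -0.08, with 6 higher and 14 lower. HERPUD1 (-0.33) was 1 of 2 that kept their groups apart, both on the lower side. Over all tested genes 60.8% were lower and 6.24% were lower without overlap.

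Promoters of these genes are shown for the element that ATF4 and CEBP factors bind. The listed genes are those of the ATF4 response, so a high share with this element can follow from how the list was made. The share uses no level from these arrays. The letters searched were TGATGNAA on both strands, in the 300 bases before each RefSeq start in GRCh38.p14. They were present in 11 of the 35 listed genes with a promoter in the table (31.4%), against 3.67% of 27305 promoters of all genes and 1.75% of those of tested genes. Stretches of 3 such promoters follow, read 5′ to 3′ on the gene's strand with the match in capitals.
CHAC1, plus strand, chr15:40953232-40953299: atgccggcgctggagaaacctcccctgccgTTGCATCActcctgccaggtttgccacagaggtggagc
ASNS, minus strand, chr7:97872439-97872506: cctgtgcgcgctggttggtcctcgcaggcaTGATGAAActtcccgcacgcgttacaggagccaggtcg
AARS1, minus strand, chr16:70289656-70289723: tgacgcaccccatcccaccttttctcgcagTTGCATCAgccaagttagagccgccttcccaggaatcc
The match begins 209 bases before the start in CHAC1, 68 in ASNS and 187 in AARS1, and in CHAC1 and AARS1 it lies on the opposite strand. AARS1, the alanyl-tRNA synthetase gene, was at 8.47, 8.38 and 8.58 against 8.51, 8.92 and 9.06 (-0.36). A match shows that the letters are there and not that a factor was bound.

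Cholesterol genes had lower medians in the parental line and clone 53 than on the other 4 arrays. Cholesterol synthesis and uptake is driven by SREBP2, which INSIG1 holds in the endoplasmic reticulum when sterols are plentiful and whose targets include INSIG1 itself. Of 18 tested genes 2 were higher and 16 lower, 4 on the lower side without overlap (6.24% of all tested genes were), and the median difference was -0.24. INSIG1 was at 6.56, 6.60 and 6.92 against 7.27, 7.38 and 7.12, a difference of -0.57 (SE 0.12). HMGCS1, the synthase that makes HMG-CoA, was at 8.94, 8.70 and 9.62 against 9.57, 9.65 and 9.94 (-0.64). Clone 92 lay above 53-1 for it, so the groups overlapped. MVK (-0.38) and NSDHL (-0.26), enzymes of the early and late pathway, had the next smallest p. The median deviation was -0.13 in the parental line and -0.28 in clone 53 but 0.09 in both clone 92 and 53-1, and without clone 53 the median difference was -0.13. Without clone 92 and 53-1 it was -0.32. The sterol element TCACNCCAC was found on either strand in 1 of 18 promoters (5.56%), that of SREBF2, against 1.15% of all promoters.

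**Figure D3:**
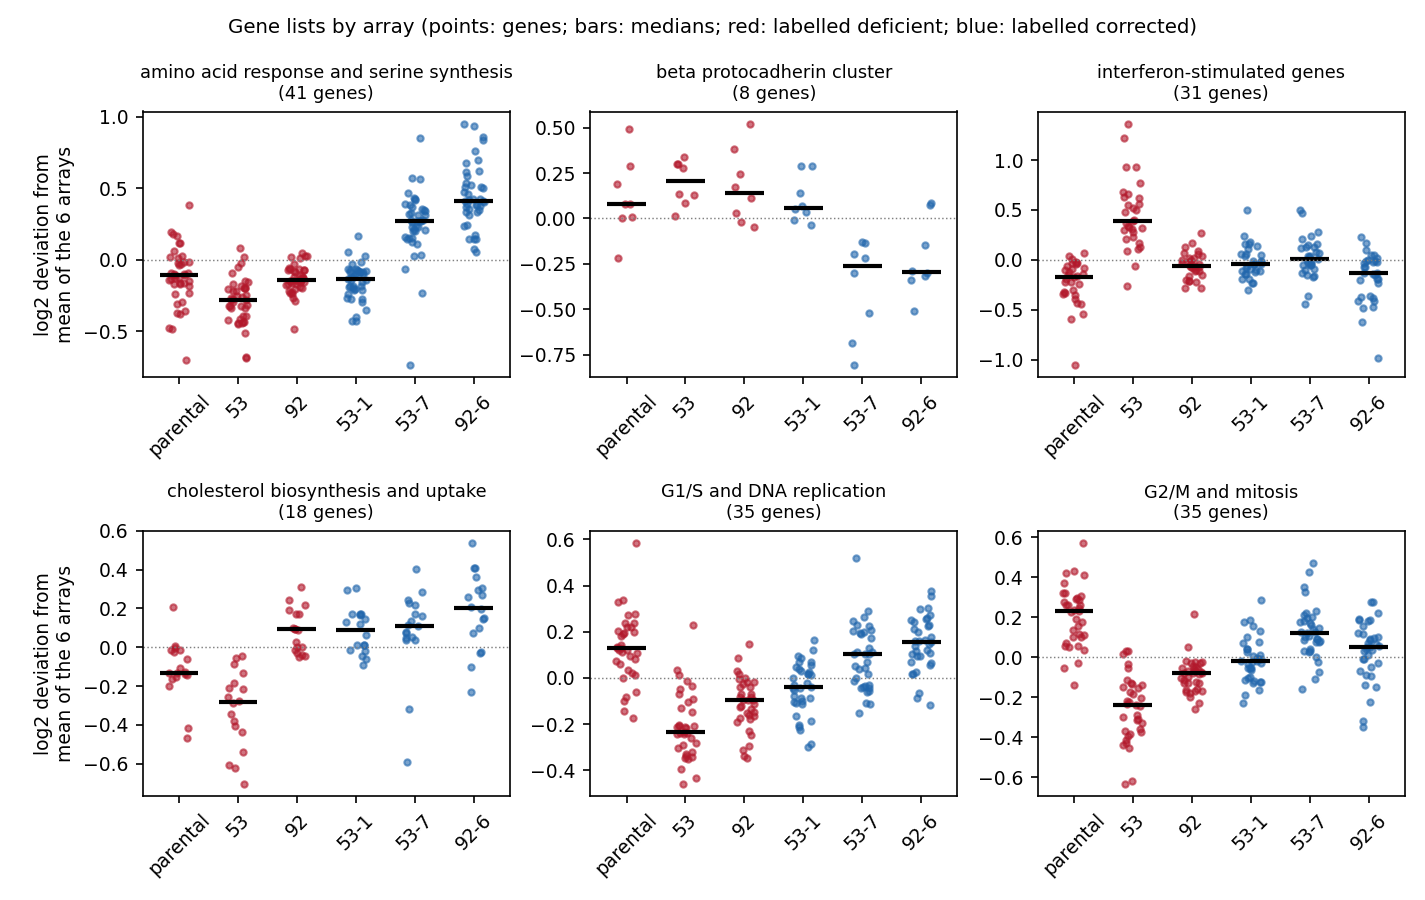
Deviation of each tested gene of 6 lists from its mean over the 6 arrays (points, log2), with the list's median on each array (bars); red: labelled deficient; blue: labelled corrected. The amino acid response genes are high in 53-7 and 92-6 but not in 53-1, the interferon-stimulated genes are high in clone 53, and the cell cycle genes are lowest in clone 53 and high in the parental line.

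Cell cycle genes were lowest in clone 53. For 35 tested genes of G1/S and DNA replication, 4 were higher and 31 lower with a median difference of -0.13, and for 35 genes of G2/M and mitosis 5 were higher and 30 lower with a median of -0.09. Groups did not overlap for 2 genes of each list, a share near the 6.24% of all tested genes on the lower side. The parental line, labelled deficient, was the highest array for 20 of the G2/M genes, and clone 53 was the lowest for 24. Without clone 53 the medians were -0.04 and -0.0001, and without the parental array they were -0.22 and -0.23. Within the pair of clone 92 and 92-6, which holds neither array, they were -0.25 and -0.13, against -0.05 over all tested genes. In all 3 pairs, 26 and 24 of the 35 genes were lower in the pre-Cre clone, against 26.6% of all tested genes. The pairs with 53-1 and 53-7 share clone 53, which was low for these genes, so the 3 pairs are not independent. CDC25A, the phosphatase that activates CDK2, was at 5.40, 5.35 and 5.31 against 5.58, 5.70 and 5.54 (-0.25). GINS2, a subunit of the replicative helicase, was at 5.18, 4.69 and 4.77 against 5.11, 5.29 and 5.46 (-0.41). The checkpoint gene MAD2L1 was at 6.58, 5.63 and 6.08 against 6.39, 6.44 and 6.45 and was highest in the parental line. For 26 genes of ribosome biogenesis the median was -0.06, with 7 higher and 19 lower. It was 0.01 without 92-6, the highest array for 15 of them, and -0.15 without the parental array. The 18 tested p53 target genes had 6 higher and 12 lower, and CDKN1A, the CDK inhibitor gene p21, was at 6.18, 5.89 and 5.96 against 5.96, 5.78 and 5.78 (0.17).

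Growth factor genes went both ways. FGFR2, a fibroblast growth factor receptor gene on chromosome 10, was at 5.89, 6.12 and 6.39 against 6.11, 4.80 and 4.65. Clone 53-1 lay with the deficient arrays while 53-7 and 92-6 were low, which gave a difference of 0.95 (SE 0.34). EGFR, the epidermal growth factor receptor gene on chromosome 7, was at 6.75, 6.59 and 6.26 against 6.69, 6.92 and 7.23 (-0.41). The ligand gene PDGFA was at 6.82, 6.62 and 6.35 against 6.11, 6.25 and 6.41 (0.34), and PDGFC at 6.22, 6.34 and 6.24 against 6.77, 7.23 and 6.29 (-0.50). Their receptor gene PDGFRA, a glioma gene, was at 9.37, 9.35 and 9.06 against 9.25, 9.19 and 8.79. Of 22 tested growth factor genes 7 were higher and 15 lower, with a median of -0.06. FGFR3 (-0.13) was the only one without overlap, where 8.71% of all tested genes had none.

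Genes that the MAPK pathway induces through ERK, several of which restrain it, were lower in 9 of 10 tested, with a median of -0.29. Groups did not overlap for 2 of them, on the lower side, where 6.24% of all genes were of that kind. ETV5, an ETS transcription factor gene, was at 4.42, 5.05 and 4.85 against 5.08, 5.59 and 5.54 (-0.63). SPRY2, a Sprouty inhibitor gene, was at 4.98, 5.21 and 5.26 against 5.44, 5.55 and 5.34 (-0.29). The parental array was lowest for 8 of the 10, and without it the median was -0.17. PHLDA1, also induced by this pathway, was at 7.58, 7.97 and 7.44 against 7.70, 8.83 and 8.51 (-0.69). DUSP6, the ERK phosphatase gene, was lowest in clone 92, at 4.44, against 5.03 to 5.83 on the other arrays. The exception was the ephrin receptor gene EPHA4, at 6.68, 8.03 and 7.72 against 7.94, 6.77 and 6.71 (0.34).

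Of the 10 tested NF-kB and inflammatory genes 1 was higher and 9 were lower, with a median of -0.22 that was -0.04 without 53-7, -0.13 without the parental array and -0.12 without clone 92. MALT1, the paracaspase gene of the NF-kB pathway, was at 5.81, 5.45 and 5.94 against 6.26, 6.38 and 6.18 (-0.54, SE 0.13). SOD2, the mitochondrial superoxide dismutase gene, was at 6.71, 6.67 and 6.49 against 6.74, 6.92 and 7.29 (-0.36). Among 28 tested genes of hypoxia and glycolysis 8 were higher and 20 lower, where 60.8% of all genes were lower, with a median of -0.09. For 6 on the lower side the groups did not overlap, as for 6.24% of all genes, and with 1 array left out the median lay between -0.16 and -0.05. HK2, which phosphorylates glucose on entry, was at 6.07, 6.23 and 6.36 against 6.53, 6.68 and 6.56 (-0.37). PFKFB4, which makes an activator of glycolysis, was at 5.63, 5.39 and 5.33 against 5.64, 5.94 and 6.04 (-0.42). Of the 13 tested immediate early genes 9 were higher and 4 lower, with a median of 0.04. For the lists described here with medians close to 0, leaving out single arrays often moved the median by over 1.5 times, so their counts give no stable direction.

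The beta protocadherins, cell surface proteins encoded by a cluster of single-exon genes on chromosome 5 whose promoters are chosen with the help of CTCF and cohesin, had the opposite sign. Of 16 genes 8 passed the filter, and all 8 of those were higher on the arrays labelled deficient, where 39.2% of all tested genes were. Their median difference was 0.34. Of these 8 only PCDHB9 kept its groups apart, at 5.72, 5.94 and 5.81 against 5.60, 5.44 and 5.32 (0.37, SE 0.11). Over all tested genes 2.47% did so on the higher side. Among the members not tested, PCDHB14 did not overlap, at 5.08, 5.30 and 4.84 against 4.82, 4.34 and 4.42, and the rest overlapped. PCDHB2 was at 7.50, 7.80 and 7.74 against 7.55, 7.20 and 7.20 (0.37). PCDHB10 was at 5.76, 5.40 and 5.30 against 5.33, 5.04 and 4.75 (0.44). By array the median deviation was 0.08, 0.21 and 0.14 before correction and 0.06, -0.26 and -0.29 after it, so 53-1 again lay with the arrays labelled deficient. Without clone 92 and 53-1 the median difference was 0.45. In 53-7 all chromosome 5 genes had a median deviation of -0.10 after the array's median over all tested genes (0.03) was taken off. The protocadherin medians above are without that step. The part of chromosome 5 in the low protocadherin level in 53-7 was not tested. The members are close paralogs, and probes could read more than 1 of them. Among 16 tested HOX genes 9 were higher and 7 lower, and HOXB3 was at 6.23, 6.39 and 6.36 against 6.11, 6.18 and 5.73 (0.32).

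Interferon-stimulated genes were highest in a single clone. Type I interferon induces antiviral genes, many of which hold an element with paired GAAA letters near their start. Of 31 tested genes 20 were higher and 11 lower, and the median difference was 0.14. Groups did not overlap for 2, both on the lower side, where 6.24% of all tested genes were of that kind. In all 3 pairs within parents 18 were higher in the pre-Cre clone, against 12.6% of all tested genes, and 2 lower, against 26.6%. Clone 53 is in 2 of these pairs, and the median of clone 92 minus 92-6 was 0.05. Clone 53 was the highest array for 26 of the 31, with a median deviation of 0.39, while the other 5 arrays lay between -0.17 and 0.01. Without clone 53 the median difference was -0.11, so its sign rests on that clone, and it was 0.04 without 92-6 and 0.25 without the parental array. IFI6, an interferon-induced mitochondrial protein gene, was at 10.26 in clone 53 and at 8.63 to 8.99 on the other arrays. IFI44L was at 8.52 in clone 53, at 6.11 in the parental line and at 6.18 to 7.66 on the rest. The antiviral genes SAMD9 and SAMD9L were at 6.97 and 7.30 in clone 53 and at most 6.05 and 6.31 elsewhere. The difference between clone 53 and its descendants was 1.27 and 1.58 for IFI6, 1.06 and 0.99 for SAMD9L, and 0.65 and 0.62 for IFIT1. MHC class I genes, which interferon also induces, gave 2 higher and 8 lower of 10 tested, with a median of -0.12. The parental array was lowest for 8 of them, and without it the median was -0.06.

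The interferon element is shown for 3 of the genes that were high in clone 53. The letters searched were GAAA, any 2 bases and GAAA again, on both strands. They were present in 20 of 32 listed genes with a promoter in the table (62.5%), against 3.65% of all promoters and 2.68% of those of tested genes. Since the list is of interferon-stimulated genes, this share too can follow from how it was made. It uses no level from these arrays. Capitals mark the matches, and matches may overlap.
IFI6, minus strand, chr1:27672246-27672315: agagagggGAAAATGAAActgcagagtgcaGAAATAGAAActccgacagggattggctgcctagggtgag
SAMD9, minus strand, chr7:93118076-93118145: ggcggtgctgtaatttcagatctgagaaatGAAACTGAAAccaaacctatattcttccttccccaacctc
IFI44L, plus strand, chr1:78620345-78620414: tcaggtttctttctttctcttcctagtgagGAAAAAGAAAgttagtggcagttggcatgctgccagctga
IFI6 holds 3 matches within its promoter, IFI44L holds 2 and SAMD9 holds 1. Genes that were not highest in clone 53 can hold the same letters, as in ISG15, at 6.46 in clone 53 and 6.56 in 92-6.

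Extracellular matrix and mesenchymal genes, which are abundant in this line, were balanced. Of 39 tested 20 were higher and 19 lower, and the median difference was 0.00. COL4A1, a basement membrane collagen gene, was at 6.35, 6.21 and 6.52 against 6.58, 6.66 and 6.58 (-0.25). The smooth muscle actin gene ACTG2 was at 8.94, 8.69 and 9.05 against 8.72, 8.03 and 8.28 (0.55), an order like that of ACTA2.

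The post-Cre clones were next set beside the pre-Cre clone that their number names. Of the tested genes, 1398 (12.6%) were higher and 2965 (26.6%) lower in the pre-Cre clone in all 3 pairs, which are clone 53 with 53-1, clone 53 with 53-7 and clone 92 with 92-6. The first pairs share the array of clone 53. A difference of 1.5-fold or more in all 3 pairs was found in 5 genes (0.0449%) on the higher side and 6 genes (0.0539%) on the lower side. These values are given with no test.

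ITGA6 had the largest of these lower values, at -1.41, -2.11 and -1.07. TNFRSF21 followed at -0.90, -2.04 and -0.68, and EPS8 at -0.68, -0.79 and -0.65. SPDL1, a spindle checkpoint gene, was at 7.70 in clone 53 and 8.21 in clone 92, against 8.36, 8.36 and 8.94 in 53-1, 53-7 and 92-6. EIF2S2, which encodes the beta subunit of the initiation factor eIF2, gave -0.61, -1.06 and -0.69. SLC7A11 gave -0.60, -1.06 and -0.69. The parental array lay among the post-Cre clones for SPDL1, EIF2S2 and SLC7A11, at 8.49, 8.64 and 8.39, so these 3 differed within parents without separating the labels. IL7R, the interleukin-7 receptor gene, and SERPINE2, a protease inhibitor gene, were both lowest in clone 53 and highest in 92-6. KITLG, which was not tested, gave -1.26, -1.88 and -0.81.

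On the higher side the 5 genes were IFI44L, DCN, RANBP3L, ENPP1 and PROS1. DCN, which encodes the matrix proteoglycan decorin, was at 9.66 in clone 53 against 8.61 and 8.80 in 53-1 and 53-7. It was at 8.51 in clone 92 against 6.63 in 92-6, the lowest array of all. RANBP3L, a nuclear export cofactor gene, was at 5.95 and 5.62 in the pre-Cre clones and at 5.32, 4.11 and 4.92 in the post-Cre clones, but at 3.81 in the parental line. ENPP1, which encodes a nucleotide pyrophosphatase, had a like order, at 6.26 and 5.70 against 5.63, 4.76 and 5.10, with 4.86 in the parental line. PROS1 differed by 0.59, 0.60 and 0.65 and was the only one of the 5 whose labelled groups did not overlap. EEF1A2, an elongation factor gene, was at 9.20 in clone 53 and 8.45 in clone 92, above their descendants and above the 8.07 of the parental line.

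In 17 genes (0.153%) both pairs of clone 53 went one way by 1.5-fold and the pair of clone 92 went the other way. Of these, 15 (0.135%) were lower in clone 53 and higher in clone 92 than in their descendants, and 2 (0.018%) the other way round. IGFBP5, which encodes a secreted binding protein of insulin-like growth factors, was at 5.02 in the parental line, 5.0 in clone 53 and 5.31 in 92-6. On the other arrays it was at 8.31 in clone 92, 8.60 in 53-1 and 7.65 in 53-7. RGS2, an inhibitor of G protein signalling, was at 4.80, 5.12 and 5.21 in the parental line, clone 53 and 92-6, against 6.34, 6.65 and 7.11 in clone 92, 53-1 and 53-7. The guidance cue gene SEMA3A, at 5.21, 6.27 and 5.73 against 7.04, 7.36 and 8.56, followed this order. So did the procollagen protease gene ADAMTS3, the transcription factor gene PAX9 and the growth factor gene PDGFD. In all 6 of these genes the parental line, clone 53 and 92-6 formed the low set and clone 92, 53-1 and 53-7 the high set, a division that neither the labels nor the parent numbers give. The rule that chose these genes fixes part of that order, but not the place of the parental line.

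**Figure D4:**
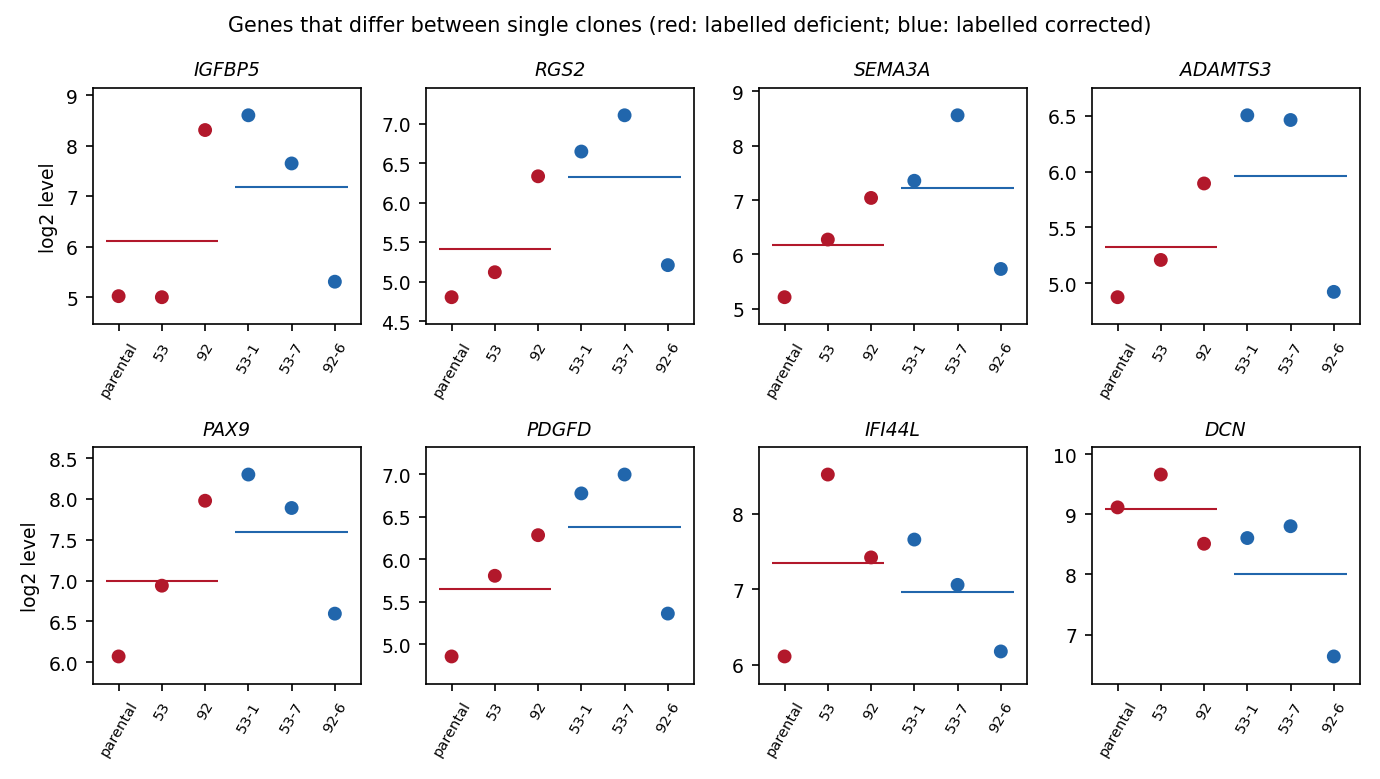
Log2 level of 8 genes on each 42MGBA array (red: labelled deficient; blue: labelled corrected; lines: group means, n = 3 each); the vertical scale differs between panels. IGFBP5, RGS2, SEMA3A, ADAMTS3, PAX9 and PDGFD are low in the parental line, clone 53 and clone 92-6, while IFI44L is highest in clone 53 and DCN lowest in 92-6.

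Each array also had genes that stood apart from the other 5. A gap of 1.5-fold to the nearest array was found in 40 genes for the parental line, 24 for clone 53, 30 for 92-6 and 41 for 53-7, but in only 4 for clone 92 and 1 for 53-1. In the parental line 35 of the 40 lay below the other arrays. BEX1, an X-linked neuronal adaptor gene, was at 7.85 there against 5.36 to 6.54 elsewhere. The immediate early gene EGR1 was at 6.19 against 7.36 to 7.89, and LRRC17 at 3.99 against 5.29 to 6.34. In 53-7 the secreted factor gene FIBIN was at 7.62 against 4.83 to 5.63, the complement protease gene C1S at 7.02 against 4.41 to 5.43, and the non-muscle myosin gene MYH10 at 4.35 against 5.70 to 6.61. In 92-6 the sulfatase gene SULF2 was at 8.02 against 9.14 to 10.08, the Wnt modulator gene SFRP2 at 5.10 against 6.08 to 7.56, and the kinase gene PLK2 at 8.98 against 7.82 to 7.98. Small nucleolar RNA genes such as SNORA62 (4.59 in clone 92, 5.23 to 6.16 elsewhere) and SNORA3A (6.08 in 53-1, 6.64 to 6.91 elsewhere) were among the genes with the largest such gaps for clone 92 and 53-1, though the gap of SNORA3A was 1.48-fold. The 1 gene past 1.5-fold in 53-1 was METTL1, which encodes a tRNA methyltransferase, at 4.85 against 5.50 to 5.98.

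Single clones differed along whole chromosomes. Chromosome deviations are from a gene's mean over the 6 arrays, less the median deviation of all tested genes on the same array. The median deviation of the 412 tested genes of chromosome 10 was -0.16 in 92-6, where 19.2% of them lay above 0, and -0.02 to 0.04 on the other arrays. In 53-7 it was -0.10 over the 483 genes of chromosome 5 and -0.11 over the 376 genes of chromosome 14. In the parental line it was 0.09 on chromosome 11 and -0.10 on chromosome 15, and in clone 53 it was -0.09 on chromosome 6. For clone 92 and 53-1 no chromosome reached a median beyond ±0.051, and they followed each other on chromosomes 5, 8, 10 and 14. In overlapping windows of 40 neighbouring genes, 4 of 522 in 92-6 had a median of -0.2 or lower, 2 in 53-7 did, and 2 in the parental line were at 0.2 or higher. They ran from PLAC9 to MYOF and WDR11 to NKX6-2 on chromosome 10 and from COL26A1 to CAPZA2 on chromosome 7 in 92-6, among others. In 53-7 they ran from IL6ST to ZFYVE16 on chromosome 5, and in the parental line from USP47 to PDHX on chromosome 11. FGFR2 and ACTA2, named above as low in 92-6, lie on chromosome 10, and the part of the chromosome in their values was not tested. Between the labels no chromosome had a median difference outside -0.05 to 0.01. The chromosome X genes, STAG2 among them, had medians of -0.02 to 0.01 on each array.

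**Figure D5:**
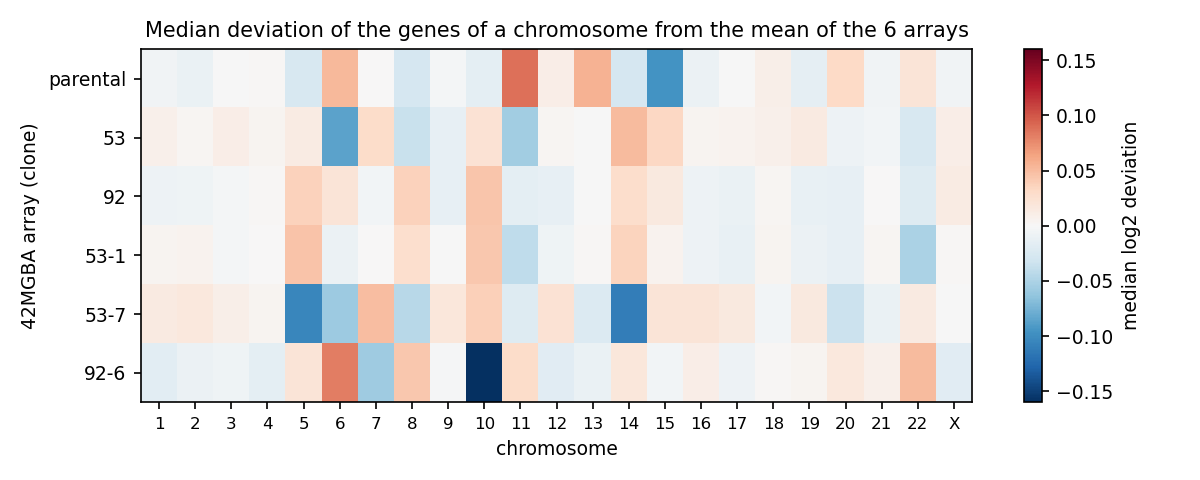
Median log2 deviation of the tested genes of each chromosome from their mean over the 6 arrays, less the array's median deviation over all tested genes (colour), by array. The darkest cells are chromosome 10 in 92-6 (-0.16) and chromosomes 5 and 14 in 53-7 (-0.10 and -0.11), and clones 92 and 53-1 have like patterns.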

How the data were processed

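The authors deposited 1 table of log2 expression values, 33297 probe sets by 16 arrays, for which the submitters' processing notes name RMA in Affymetrix Expression Console. Versions, settings and annotation build were not given in the sources used here, and the log2 scale was read from the range of the values. RMA subtracts background, gives arrays a common distribution and averages the probes of a probe set. The 42MGBA medians (at most 5.05) lie below those of the other lines (at least 6.23), so the 42MGBA arrays were analysed alone.

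The platform annotation gave 1 symbol for 19460 rows, more than 1 for 1754 and none for 12083 rows it does not list; 19429 symbols were updated through RefSeq (GRCh38.p14). Rows with 1 gene stood for 18417 genes, each by the row with the highest mean. A gene was tested if above the array median on at least 3 of 6 arrays, which left 11133. The comparison used limma 3.58.1 (R 4.3.3; lmFit, eBayes), two-sided, with Benjamini-Hochberg adjustment and a threshold of 0.05, checked on simulated data. No depth applies to arrays; their number limits the precision. Nothing in the labels says that cultures were repeated, so p-values measure the spread between these clones.

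Named genes were STAG2, STAG1, ITGA6, KITLG and TNFRSF21; per direction the 10 largest differences among non-overlapping genes with an unadjusted p under 0.05, since none passed the threshold; 8 genes per direction within parents; 6 opposite between parents; 5 per array; and 4 members per list by p. Further members named from the lists were picked after their values were seen. Members and lists were chosen with earlier results of these data known, so list shares set beside those of all genes are no independent support. Gene lists are described by counts and medians without a test. The parent numbers were not used in the main fit. Deviations of clone 53 from the group means correlated at 0.08 with 53-1, 0.16 with 53-7 and -0.23 with 92-6. Those of clone 92 correlated at 0.28 with 53-1, -0.09 with 53-7 and -0.17 with 92-6. Removing the group means ties the deviations of a group together, so these correlations are not independent and do not settle the pairing.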

Additional observations from a re-analysis of the deposited data

Results flagged for a closer look

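In 7 named genes both differences of clone 53 from its descendants and the difference of clone 92 from 92-6 were 1.5-fold or more and pointed in opposite directions. Smaller differences with opposite signs were not counted, and the difference between the parents was not tested. For clone 92 minus 92-6 it was 3.00 on the log2 scale for IGFBP5, 1.13 for RGS2, 1.31 for SEMA3A, 0.97 for ADAMTS3, 1.38 for PAX9 and 0.92 for PDGFD, where clone 53 lay below both 53-1 and 53-7. For SNORA62, a small nucleolar RNA gene, clone 92 lay below 92-6 (-1.55) and clone 53 above both descendants (0.93 and 0.72).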

How the results depend on the processing

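Each result was recomputed with other filters, scalings, fits and sets of arrays. The count of genes past the adjusted p was 1 (ITGA6) with clone 92 and 53-1 both left out, chosen after seeing the data, and 0 in the other alternatives. The count at an unadjusted p under 0.05 was 807 with no filter on low values, 945 with parent clone as a replicate block, and 273 (without 53-7) to 662 (without 53-1) with 1 array left out. Genes without overlap numbered 537 higher and 1165 lower with no filter, 469 and 444 after quantile normalization, 599 and 1374 with the sister clones averaged, 1242 and 2153 without clone 92 and 53-1, and 596 to 725 and 1141 to 1869 with 1 array left out, where fewer arrays overlap less. Within parents, the counts at 1.5-fold were 2 higher and 11 opposite when all 6 arrays had to exceed the median. They were 0 higher, 1 lower and 3 opposite at a log2 threshold of 1, and 6 to 19, 8 to 37 and 23 to 26 without 1 post-Cre clone of 53. They cannot be computed without clone 53, 92 or 92-6. STAG2 kept its sign throughout (-0.49 to -0.06) but was not tested where all 6 arrays had to exceed the median. Of the list medians 398 moved by less than the spread between arrays and 18 by more, and 1558 values of single genes kept their side of the threshold. The block changed no other call.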
